A study of Mus musculus with 8 samples.

Results

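Fatty acid binding proteins were examined as 6 genes, Fabp1, Fabp2, Fabp3, Fabp4, Fabp5 and Fabp7, taken by symbol out of the 52195 genes in a table of mouse tissue expression. The rule reads the symbol alone and no expression value. The table held 8 bulk RNA sequencing libraries, 2 each of kidney, liver, lung and small intestine, and the question asked of each gene was how its level differed between the 4 tissues. The mice were male C57BL/6J animals (labelled C57BL/6) of 6 to 10 weeks, and no treatment, transgene or mutation is named for any group. Each library was made from the polyadenylated RNA of ground tissue, so the values average over the cell types in the piece taken. In such bulk samples, fewer cells of a type and less RNA per cell cannot be told apart.

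Fatty acid binding proteins are small, abundant proteins of the cytosol that fold into a barrel around a cavity holding a fatty acid or another lipid. They carry these poorly soluble molecules between the plasma membrane, the endoplasmic reticulum, mitochondria, lipid droplets and the nucleus, where some members hand ligands to nuclear receptors of the PPAR family. The members are named after the place where each was first found in quantity: liver (Fabp1), intestine (Fabp2), heart (Fabp3), adipocyte (Fabp4), epidermis (Fabp5) and brain (Fabp7).

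Expression is given as FPKM, a fragment count corrected for transcript length and for library size, and differences as log2 of (FPKM + 1). Each library held between 9164167 and 21444585 reads on genes, and values under 3 reads were taken as not told from 0, a floor that covers counting error only. The limma test covered the 16328 genes that reached an FPKM of 1 in 2 or more libraries, and all 6 genes passed this filter. A gene was called where the Benjamini-Hochberg adjusted p was under 0.05 and the log2 difference was over 1 in size. The libraries carried the markers of their labelled tissue: 5 enterocyte markers summed to an FPKM of 1414 and 1535 in small intestine, 4 hepatocyte markers to 51711 and 47086 in liver, 3 proximal tubule markers to 1169 and 758 in kidney, and 3 alveolar type 2 markers to 16296 and 14116 in lung. Over the genes tested, the median log2 difference from the mean of the other 3 tissues was -0.34 in kidney, -0.72 for liver, 0.82 for lung and -0.01 for small intestine, so lung values lay above and liver values below those of the other tissues for genes in general. Of all genes called in lung, 83.1% were higher, against 47.2% after median-of-ratios scaling of the libraries. The same share was 35.0% and 49.2% in kidney, and 16.7% and 47.7% in liver.

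The tissues differed in their levels of the fatty acid binding proteins, and some genes were shared between tissues. Fabp1 and Fabp2 were the high genes of small intestine, Fabp1 that of liver, Fabp5 that of lung, and Fabp3 and Fabp7 were highest in kidney, at far lower levels. Fabp3 was also called higher in lung, and Fabp4 overlapped between lung, kidney and small intestine. Against the mean of the other tissues, 2 of the 6 genes were called higher and 3 lower in kidney, where 8.65% of all genes tested were called higher and 16.1% lower. In liver 1 was called higher and 2 lower, against a background of 6.56% and 32.7%. In lung 2 were called higher and 3 lower, against 40.7% and 8.26%, and in small intestine 2 and 2, against 13.7% and 11.3%. A call toward higher expression was therefore most common among genes at large in lung.

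**Figure D1:**
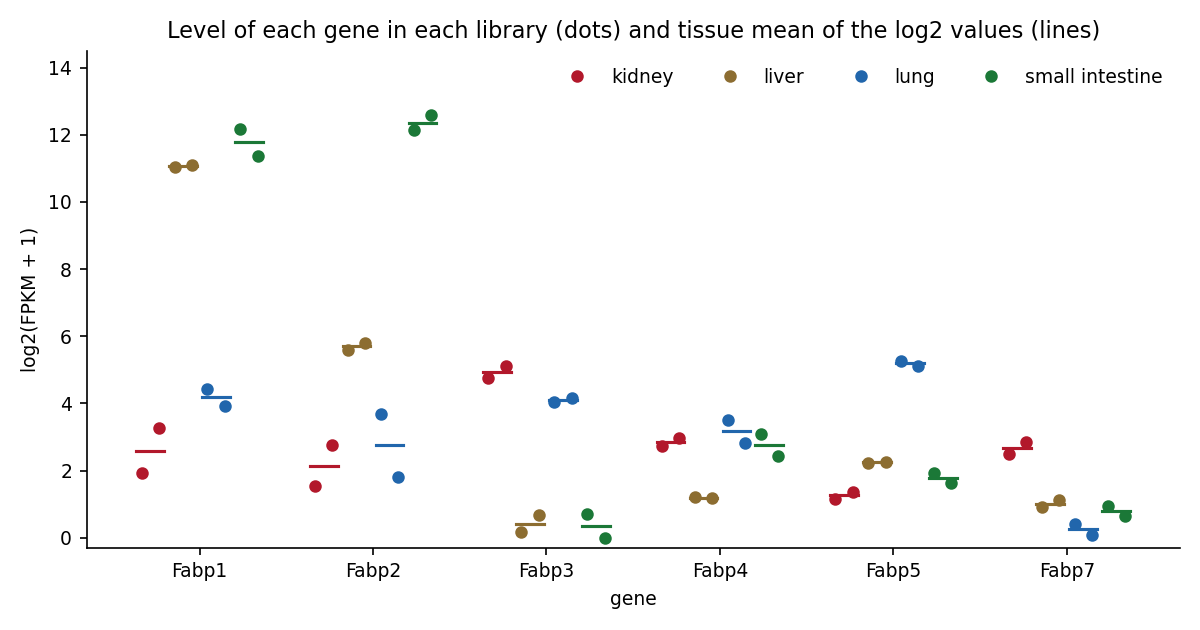
Level of each fatty acid binding protein gene in each library, as log2(FPKM + 1) on the vertical axis, with the genes along the horizontal axis; dots are the 2 libraries of a tissue and short lines their mean on this scale. Fabp1 stands high in liver and small intestine and Fabp2 in small intestine, and every other value is at an FPKM of 55.1 or less.

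Fabp1, the liver-type protein of hepatocytes and enterocytes, lies at chr6:71199827-71205023 on the plus strand of the GRCm38 genome (ENSMUSG00000054422.7). Its FPKM was 2104 and 2201 in liver, 4629 and 2643 in small intestine, 20.7 and 14.3 in lung, and 2.78 and 8.67 in kidney. All 4 libraries of liver and small intestine were above all 4 of lung and kidney, and both of small intestine were above both of liver. Fabp1 was among the most abundant transcripts where it was high, at ranks 39 and 38 of all genes in the liver libraries and 18 and 30 in those of small intestine. The log2 difference from the mean of the other tissues was 5.82 ± 0.36 (SE) in small intestine, with an adjusted p of 9.27e-06 by limma, and 4.89 ± 0.36 in liver, with an adjusted p of 2.18e-05. Between the 2 high tissues, 3636 ± 1404 (SD, n = 2) in small intestine and 2152 ± 68.6 in liver did not differ beyond the spread. Liver minus small intestine was -0.70 on the log2 scale, with a 95% interval from -1.74 to 0.34 and an adjusted p of 0.215 by limma. At the low end, kidney was below lung by limma (log2 difference -1.59, adjusted p 0.0132), by -0.78 relative to the median of all genes tested. This call was lost after median-of-ratios scaling (-0.56), after quantile normalization (-0.89), with mitochondrial genes left out (-0.97), with voom on recovered reads (-1.83, adjusted p 0.0577), without kidney replicate 1 (-0.91) and without lung replicate 1 (-1.34, adjusted p 0.0704).

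Fabp2, the intestinal carrier of absorbed dietary fatty acids, lies at chr3:122895072-122899506 on the plus strand (ENSMUSG00000023057.5). Its FPKM was 4472 and 6134 in small intestine, 47.5 and 55.1 in liver, 12.0 and 2.502 in lung, and 1.88 and 5.81 in kidney. Both libraries of small intestine stood above all others, those of liver came next without overlap, and lung and kidney overlapped. The log2 difference was 8.82 ± 0.50 (SE) for small intestine against the other tissues, with an adjusted p of 5.60e-06 by limma, the largest difference of the 24 tested over 6 genes and 4 tissues. Liver lay below small intestine by 6.65 ± 0.61 (SE, adjusted p 6.19e-05 by limma), and lung minus kidney was within the spread (kidney minus lung -0.61, 95% interval -2.03 to 0.82, adjusted p 0.396), although without lung replicate 2 kidney was called lower (-1.55, adjusted p 0.0281 by limma). Fabp2 ranked 19 and 13 among all genes of the small intestine libraries.

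Liver and small intestine thus shared Fabp1 and differed in Fabp2, and the bases before their RefSeq start sites are shown to let both be compared. They are the 250 bases upstream of the RefSeq transcript start on GRCm38.p6, read 5′ to 3′ along the gene, at chr6:71199629-71199878 for Fabp1 and chr3:122894822-122895071 for Fabp2, both on the plus strand. The GENCODE gene starts used for the positions above differ for some members, so the last 52 bases of the Fabp1 window, and of the windows of Fabp3 and Fabp7 described with it the last 143 and 42, lie inside the gene by those coordinates, and 0 of the Fabp2 window. Capitals mark matches on either strand to a TATA box (TATAAA), to the nuclear receptor core motif (AGGTCA) or to a core motif of the intestinal homeobox factor CDX2 (TTTATNG); no match overlaps another.
Fabp1: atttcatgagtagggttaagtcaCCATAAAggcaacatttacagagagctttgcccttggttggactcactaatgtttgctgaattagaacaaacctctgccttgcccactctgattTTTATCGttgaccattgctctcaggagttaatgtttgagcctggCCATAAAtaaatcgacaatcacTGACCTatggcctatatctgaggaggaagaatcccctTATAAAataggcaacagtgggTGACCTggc
Fabp2: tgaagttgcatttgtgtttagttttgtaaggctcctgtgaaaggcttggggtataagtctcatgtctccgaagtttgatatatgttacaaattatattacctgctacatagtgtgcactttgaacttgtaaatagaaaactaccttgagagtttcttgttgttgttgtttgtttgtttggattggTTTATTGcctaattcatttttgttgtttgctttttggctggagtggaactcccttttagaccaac

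The Fabp1 window held TATAAA at positions -30 to -25 from the RefSeq start, AGGTCA on the opposite strand at -67 to -62 and -9 to -4, and TTTATNG at 3 places, at -133 to -127 on the strand of the gene and at -227 to -221 and -89 to -83 on the other. The Fabp2 window held TTTATNG at -65 to -59 and none of the others. TTTATNG was the only motif found in both windows. Of 32851 upstream windows of the same length, 9.81% held TTTATNG, 14.02% AGGTCA and 12.4% TATAAA, and a match describes these letters only. A motif of HNF4 (CAAAGTCCA) was in neither window and in 0.384% of all. For the genes that were high in kidney, the Fabp7 window held AGGTCA at -171 to -166 on the opposite strand and the Fabp3 window held none of these motifs. The GC content was 42.8% for Fabp1 and 35.6% for Fabp2, both below the median of 52.4% over all windows, and 64.8% for Fabp3 and 54.8% for Fabp7, both above it.

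The low levels of Fabp2 outside small intestine and liver were set beside those of Rbp2 and the 5 listed enterocyte markers, Sis, Lct, Alpi, Vil1 and Apob. As a percentage of its small intestine mean, Fabp2 was at 0.0355 and 0.110 in the kidney libraries and at 0.226 and 0.0472 in those of lung. Rbp2, the retinol carrier of enterocytes, was at 0.0379 and 0.112 in kidney and at 0.218 and 0.0559 in lung. Sis, the sucrase-isomaltase of the brush border, was at 0.0178 and 0.0825 in kidney and at 0.244 and 0.0498 in lung. Vil1, the villin of brush borders, which is also known from the kidney tubule, was at 7.38 and 5.62 in kidney and at 0.274 and 0.0652 in lung. Apob, an apolipoprotein made by liver as well as intestine, was at 7.995 and 3.45 in kidney and at 0.723 and 0.347 in lung. Lct was at 0.0453 and 0.0911 and Alpi at 0.0179 and 0.0887 in kidney. Lung replicate 1 was the higher library for all 7 genes, and kidney replicate 2 for Fabp2, Rbp2, Sis, Lct and Alpi, while Vil1 and Apob were higher in kidney replicate 1. Fabp2 in kidney replicate 2 was 3.08 times that in replicate 1, and markers of other organs differed in the same direction, with a ratio of 3.02 for Sftpc and 2.22 for Sftpb, surfactant proteins of lung, and of 2.62 for Alb, 2.53 for Apoa2, 1.79 for Ttr and 1.034 for Serpina1a, plasma proteins made by liver. The part of these differences between libraries in the low values of Fabp1 and Fabp2 was not tested.

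In liver, Fabp2 lay between the intestinal genes. It was at 0.896% and 1.04% of its small intestine mean there. Apob was at 179% and 136%, above it, while Rbp2 was at 0.125% and 0.151%, Sis at 0.119% and 0.138%, Lct, the lactase of the brush border, at 0.0927% and 0.117%, Alpi, intestinal alkaline phosphatase, at 0.0922% and 0.0818%, and Vil1 at 0.116% and 0.205%. The Fabp2 share was thus above that of 5 of these 6 genes in both liver libraries, and below that of Apob. It rested on 420 and 549 reads. In lung, Fabp1 was at 0.570% and 0.392% of its small intestine mean, below Apob in replicate 1 and above it in replicate 2. Alb was at 0.215% and 0.122% of its liver mean in the same lung libraries.

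**Figure D2:**
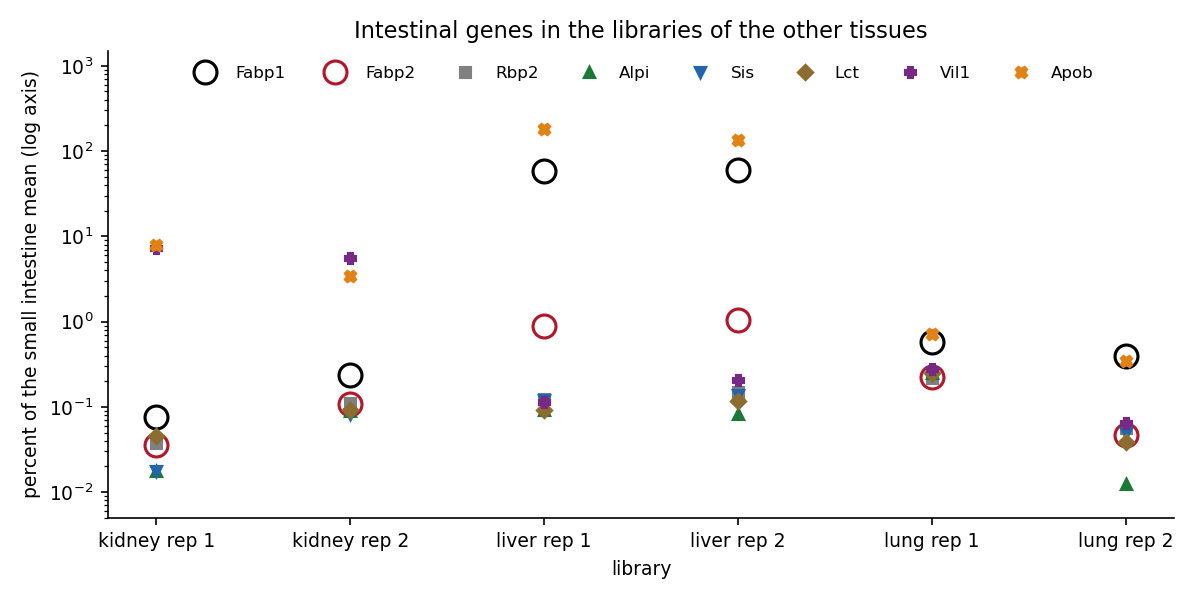
Fabp1, Fabp2, Rbp2 and the 5 listed enterocyte markers in the libraries of kidney, liver and lung, as percent of each gene's small intestine mean on a log axis. Fabp2 (open red circles) is below Vil1 and Apob in kidney, and in liver, at 0.896% and 1.04%, it is below Apob and above Rbp2, Alpi, Sis, Lct and Vil1; Fabp1 (open black circles) lies at 57.9% and 60.5% in liver.

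Fabp3, the heart-type protein that carries fatty acids to mitochondria in muscle, lies at chr4:130308595-130315463 on the plus strand (ENSMUSG00000028773.8). In kidney its FPKM was 26.0 and 34.0 and in lung 15.6 and 16.9. Small intestine had 0.649 and 0, and liver 0.133 and 0.588. Kidney was above lung in both libraries, and liver and small intestine overlapped, with at most 5 reads per library. In small intestine replicate 2 no read was counted, which allows an FPKM of up to 0.322. The log2 difference from the other tissues was 3.31 ± 0.24 (SE) in kidney, with an adjusted p of 2.56e-05 by limma, and 2.20 ± 0.24 in lung, with an adjusted p of 8.69e-05. Relative to the median of all genes tested, the difference was 3.65 in kidney and 1.38 in lung. Kidney minus lung was 0.83 on the log2 scale, with a 95% interval from 0.16 to 1.51 and an adjusted p of 0.0319 by limma, below the fold needed for a call. Relative to the median of all genes tested it was 1.65, and it was called after median-of-ratios scaling (1.87), after quantile normalization (1.56), with mitochondrial genes left out (1.51) and without kidney replicate 1 (1.02). Liver minus small intestine was 0.06, with an interval from -0.61 to 0.74.

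Cardiac muscle markers were high in lung and low in kidney, and skeletal muscle markers differed between the lung libraries. The 5 cardiac markers summed to 217 and 223 in lung, where all 5 in replicate 1 and 4 in replicate 2 were at an FPKM of 1 or more, and to 1.57 and 0.940 in kidney. Myh6, the atrial form of the cardiac myosin heavy chain, was at 13.2 and 13.1 in lung and at 0.0347 and 0.0344 in kidney. The 5 skeletal muscle markers summed to 30.9 and 2.38 in lung and were all at 0 in both kidney libraries. In small intestine the cardiac markers summed to 7.74 and 9.10 and the skeletal ones to 7.81 and 8.85. Liver had cardiac sums of 0.262 or less and skeletal sums of 0.142 or less. The part of cardiac muscle in the Fabp3 level of lung was not tested, and in kidney, where Fabp3 was highest, its markers were near 0.

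Fabp3 also had a near-identical copy in the genome that took reads. The processed pseudogene Fabp3-ps1, at chr10:86731987-86732388 on the minus strand, differs from the Fabp3 transcript at 3 of its 402 bases (99.3% identity). A stretch of 80 bases that holds 2 of these differences, in capitals, shows how little separates both.
Fabp3: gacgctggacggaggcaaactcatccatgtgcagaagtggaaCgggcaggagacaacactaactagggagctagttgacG
Fabp3-ps1: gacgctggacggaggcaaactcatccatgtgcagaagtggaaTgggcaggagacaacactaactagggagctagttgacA

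Fabp3-ps1 was listed at an FPKM of 11.02 and 10.1 in kidney and of 4.33 and 5.80 in lung. Liver had 0 and 0.482 and both libraries of small intestine 0. It followed the order of Fabp3. It held 17.2% and 12.6% of the reads of both together in kidney and 12.0% and 14.4% in lung. With the reads of the pseudogene added, the log2 difference of Fabp3 was 3.44 (kidney), 2.28 (lung), -2.75 (liver) and -2.97 (small intestine), each in the direction found without them. Of the 31-base words in the Fabp3 transcript, 50.1% occur in another annotated gene, 35.2% in the pseudogene, 6.43% in Zcchc17 and 6.31% in Gm10570, which overlap the ends of Fabp3 on the opposite strand. Without strand information, reads in those overlaps cannot be told apart. Zcchc17 was at 5.79 and 5.55 in kidney and at 9.12 and 8.58 in lung. In small intestine it was at 6.26 and 4.94, and in liver at 2.68 and 3.36.

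Fabp7, the brain-type protein known for binding docosahexaenoic acid in glia, lies at chr10:57784881-57788450 on the plus strand (ENSMUSG00000019874.11). Its FPKM was 4.66 and 6.24 in kidney and 0.328 and 0.0644 in lung. Between them came liver with 0.873 and 1.16 and small intestine with 0.940 and 0.565. Both kidney libraries were above the other 6 and both lung libraries below the other 6. The kidney level rested on 125 and 135 reads, and that of lung on 4 and 1. The log2 difference was 1.99 ± 0.17 (SE) for kidney, with an adjusted p of 5.88e-05 by limma, and -1.25 ± 0.17 for lung, with an adjusted p of 0.000304. Among the other tissues, liver minus small intestine was 0.21, with a 95% interval from -0.28 to 0.69 and an adjusted p of 0.424. Markers of Schwann cells and glia summed to 0.632 and 0.502 in kidney, and to 7.80 and 4.61 in lung, where Fabp7 was lowest.

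Fabp5, the epidermal-type protein, also known from macrophages and endothelium, lies at chr3:10012548-10016607 on the plus strand (ENSMUSG00000027533.10). Its FPKM was 37.8 and 33.3 in lung. Liver came next with 3.67 and 3.80, then small intestine with 2.79 and 2.08 and kidney with 1.24 and 1.57. Both lung libraries were above all others, and no tissue overlapped another. The log2 difference was 3.43 ± 0.15 (SE) in lung, with an adjusted p of 1.06e-06 by limma, and 2.61 above the median of all genes tested. Kidney was lower than the other tissues by limma (log2 difference -1.80, adjusted p 4.81e-05), and so was small intestine (-1.13, adjusted p 0.000466), which without its second library fell short of the fold for a call at -0.98. As fitted, the tissues at the low end differed by less than the fold for a call: kidney minus liver was -0.98 (adjusted p 0.00386), liver minus small intestine 0.47 (adjusted p 0.0566) and kidney minus small intestine -0.51 (adjusted p 0.0516), all by limma. Kidney minus liver was -1.25 relative to the median of all genes tested, and it was called after median-of-ratios scaling (-1.47), after quantile normalization (-1.35), with a pseudocount of 0.1 (-1.36), with voom on recovered reads (-1.43) and without kidney replicate 2 (-1.08). Liver minus small intestine was called after median-of-ratios scaling (1.18) and quantile normalization (1.12).

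Markers of alveolar macrophages, the resident macrophages of the air spaces, and of endothelium were both highest in lung, as was Fabp5. Of 6 macrophage markers listed, 5 were in the table, and they summed to 624 and 553 in lung, 69.2 and 74.3 in kidney, 64.3 and 67.6 in small intestine, and 8.50 and 11.03 in liver. In kidney and small intestine most of the sum was Car4, a gene these tissues also express, at 68.4 and 73.5 in the former and at 61.2 and 65.4 in the latter. All 5 were at an FPKM of 1 or more in both lung libraries, where Chil3 was at 345 and 293 and Ear2 at 127 and 112. Chil3 was at 0.356 or less in the other 6 libraries. Markers of keratinocytes and squamous epithelium summed to 1.64 and 1.55 in lung and to 0.469 or less elsewhere. The 5 endothelial markers summed to 307 and 372 in lung and to 26.2 or less elsewhere. The part of macrophages or endothelium in the Fabp5 level was not tested. Of the 31-base words of Fabp5, 9.27% occur in other annotated genes, among them processed pseudogenes, so its reads are less certain than those of Fabp1, Fabp2 and Fabp7, which share none.

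Fabp4, the adipocyte-type protein, also carried by macrophages and capillary endothelium, lies at chr3:10204088-10208576 on the minus strand (ENSMUSG00000062515.3). Its FPKM was 10.4 and 6.08 in lung, 5.63 and 6.81 in kidney, 7.54 and 4.43 in small intestine, and 1.34 and 1.25 in liver. Lung, kidney and small intestine overlapped and both liver libraries were below the other 6. The log2 difference of liver was -1.73 ± 0.24 (SE), with an adjusted p of 0.000429 by limma, and -1.01 relative to the median of all genes tested. After quantile normalization it was -0.95, under the fold for a call. For lung it was 0.90 ± 0.24, with an adjusted p of 0.00962 but under the fold for a call, and 0.08 relative to that median. It ranged from -0.06 to 1.24 over all the alternative settings, so no direction is given for lung. Kidney minus lung was -0.32 (95% interval -1.01 to 0.37), kidney minus small intestine 0.08 (-0.61 to 0.77) and lung minus small intestine 0.40 (-0.29 to 1.09), none past the threshold.

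Markers of adipocytes and endothelium were set beside Fabp4. The 5 adipocyte markers summed to 37.6 and 53.8 in small intestine and 27.5 and 18.3 in lung. Liver had 1.49 and 0.540, and kidney 0.261 and 0.727. Most of the sum in small intestine was Cidec, a lipid droplet protein, at 32.2 and 50.01, while Adipoq, the adipocyte hormone, was at 4.18 and 2.43 there and at 8.90 and 5.19 in lung. In kidney, where Fabp4 was at 5.63 and 6.81, Adipoq was at 0.101 and 0.418. The 5 endothelial markers summed to 307 and 372 in lung and to 26.2 and 16.9 in kidney. Liver had a sum of 11.7 and 11.9, and small intestine one of 11.5 and 7.62. Of these 5 genes, Emcn and Pecam1 had their lowest mean in liver, as Fabp4 did. Cdh5, Kdr and Tek had a higher mean in liver than in small intestine. The part of either cell type in the Fabp4 level was not tested.

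**Figure D3:**
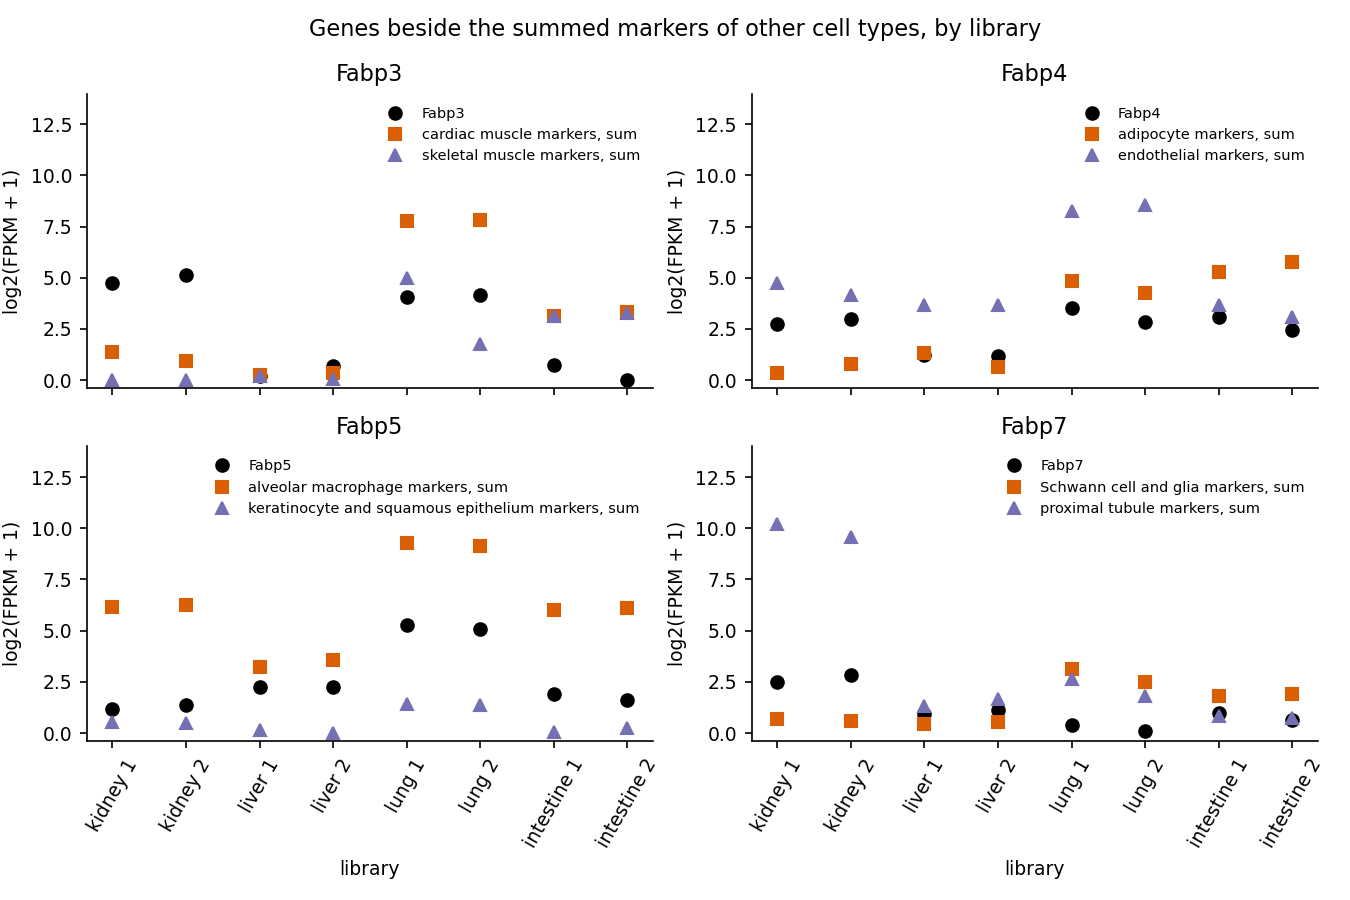
Fabp3, Fabp4, Fabp5 and Fabp7 in each of the 8 libraries (black dots) beside the summed FPKM of markers of other cell types (coloured symbols), all as log2(FPKM + 1). Cardiac markers are high in lung and low in kidney, where Fabp3 is highest, and alveolar macrophage markers are highest in lung, as is Fabp5.

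The tests of each tissue against the other 3 gave 17 calls of 24. Among the 16328 genes tested, 4038 were called in either direction in kidney, 6405 in liver, 8001 in lung and 4087 in small intestine. Among pairs of tissues, 5 of the 6 genes were called between kidney and liver (23.1% of all genes tested) and 5 between liver and lung (62.7%). Another 4 were called between kidney and small intestine (29.5%), 4 between lung and small intestine (40.6%), 3 between kidney and lung (50.3%) and 2 between liver and small intestine (36.2%). The 2 genes called between liver and small intestine were Fabp2 and Fabp4. With median-of-ratios scaling or quantile normalization they were Fabp2 and Fabp5, since Fabp4 fell short of the fold (-0.999 and -0.89) and Fabp5 was called higher in liver. Fabp4 was likewise called lower in liver than in lung (-1.97), -0.83 relative to the median of all genes tested, but not after either scaling (-0.73 and -0.70). By an exact two-sided permutation test over the 28 ways to choose 2 of the 8 libraries, the smallest p that can be reached is 0.0357. It was reached by Fabp2 in small intestine, Fabp3 and Fabp7 in kidney, Fabp5 in lung, Fabp4 in liver and Fabp1 in kidney, and adjusted over the 24 tests it was 0.143 in each case, a value that this smallest p limits and that says nothing of stability. In 5 of the 24 cases both libraries of a tissue were above the other 6 and in 4 they were below. The cases above were Fabp1 and Fabp2 in small intestine, where 12.8% of all genes tested had both libraries above the other 6, Fabp3 and Fabp7 in kidney (8.60%) and Fabp5 in lung (51.4%). The cases below were Fabp1 and Fabp5 in kidney (8.05%), Fabp4 in liver (35.1%) and Fabp7 in lung (4.50%).

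**Figure D4:**
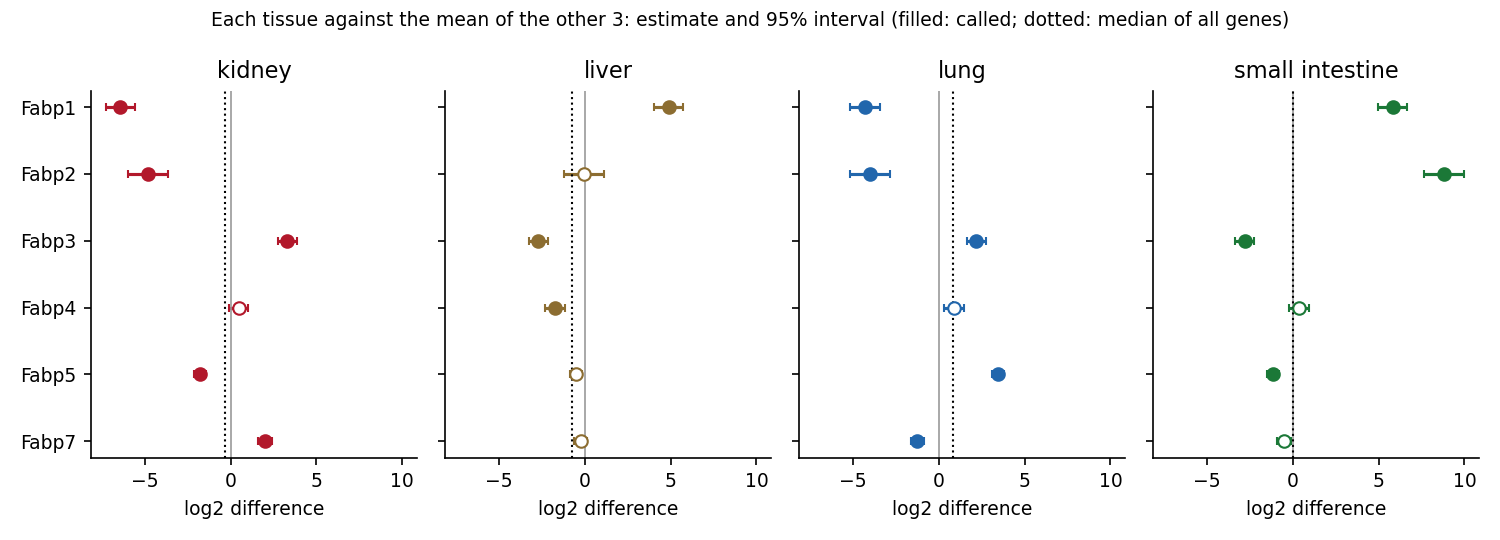
Log2 difference of each gene in each tissue from the mean of the other 3 tissues, in log2(FPKM + 1), with its 95% interval from limma; filled symbols are called, open ones are not, and the dotted line is the median of all genes tested. Fabp2 in small intestine reaches 8.82 and Fabp1 is positive in liver and small intestine and negative in kidney and lung.

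The summed level of the 6 genes spanned the widest range between small intestine and kidney. The sum was 9113 and 8784 in small intestine, 2157 and 2263 in liver, 96.8 and 73.2 in lung, and 42.2 and 63.1 in kidney. As a share of the FPKM of all genes the mean was 1.33% for small intestine, 0.354% for liver, 0.0163% for lung and 0.00733% for kidney. Small intestine and liver were thus set apart from lung and kidney, as they were by Fabp1.

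Within this sum, the leading gene changed from tissue to tissue. Fabp1 made up 97.4% ± 0.181 (SD, n = 2) in liver. In small intestine Fabp2 made up 49.1% and 69.8%, and Fabp1 50.8% and 30.1%, so each led in a different library. In lung Fabp5 led with 42.3% ± 4.63, followed by Fabp1 with 20.5% ± 1.38 and Fabp3 with 19.6% ± 4.98. Fabp1 and Fabp3 did not keep their order, at 21.4% and 16.1% in replicate 1 and at 19.5% and 23.1% in replicate 2. In kidney Fabp3 led with 57.7% ± 5.44, followed by Fabp4 with 12.1% ± 1.81, Fabp7 with 10.5% ± 0.827 and Fabp1 with 10.2% ± 5.05. The order of these last genes did not hold per library, since Fabp1 was at 6.60% in replicate 1 and at 13.7%, above Fabp4 and Fabp7, in replicate 2.

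Shares between genes depend on the length that each gene was given. The exons of Fabp4 add up to 4489 bases over its transcripts, 5.01 times its shortest coding transcript of 896 bases, and the ratio is 3.61 for Fabp5, 1.55 for Fabp7 and 1 for Fabp1, Fabp2 and Fabp3. If the reads came from the short transcripts, the FPKM per length would be 31.2 ± 4.17 (SD, n = 2) for Fabp4 and 30.0 ± 5.67 for Fabp3 in kidney, so that Fabp4 would lead there with 37.4% against 35.7%. Fabp5 would be at 128 ± 11.3 in lung and lead there with 61.4%, followed by Fabp4 with 19.2%, Fabp1 with 8.23% and Fabp3 with 7.86%. The same length was used for a gene in all libraries, so the order of tissues within a gene could not change. Whether tissues differ in the transcripts they use was not tested.

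**Figure D5:**
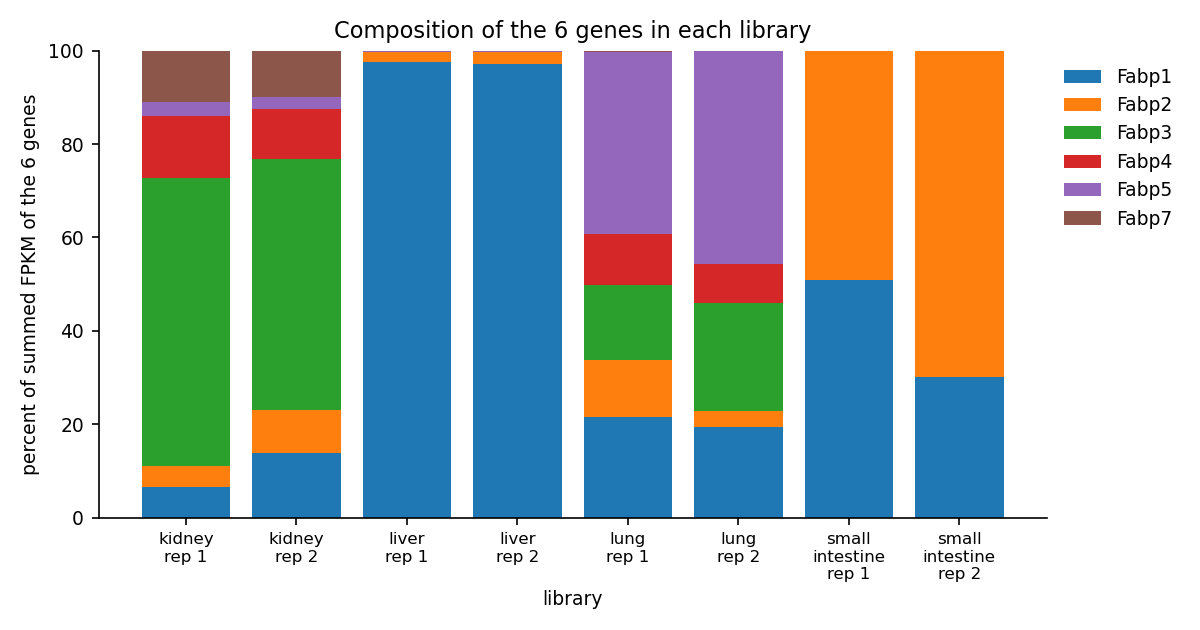
Share of each gene in the summed FPKM of the 6 fatty acid binding proteins, in percent, one stacked bar per library. Fabp1 fills the liver bars (97.4% on average), Fabp1 and Fabp2 fill those of small intestine, Fabp5 is the largest part in lung and Fabp3 in kidney.

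The other intracellular lipid-binding proteins, which share the barrel fold, were examined beside the 6 genes. Of the 9 listed, 4 passed the filter. Rbp2 was at an FPKM of 5505 and 3181 in small intestine and at 9.47 or less elsewhere, with a log2 difference of 9.58 ± 0.46 (SE, adjusted p 2.60e-06 by limma). Rbp7 was at 15.9 and 13.2 in small intestine and at 1.46 or less elsewhere (log2 difference 3.57, adjusted p 1.57e-06). Crabp1, a retinoic acid carrier, was at 1.40 and 1.003 in lung and at 0.266 or less elsewhere (log2 difference 1.04, adjusted p 4.56e-05), 0.22 above the median of all genes tested. Crabp2 had at most 1 read in a library.

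With Rbp2, small intestine held 3 transcripts of this fold among its most abundant ones. Rbp2 exceeded both Fabp1 and Fabp2 in replicate 1, at 5505 against 4629 and 4472, and was below Fabp2 in replicate 2, at 3181 against 6134. Fabp1 and Rbp2 were both lower in replicate 2 than in replicate 1, while Fabp2 was higher.

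The wider machinery of fatty acid handling, 33 listed genes for uptake, activation, esterification, droplets, lipases, lipoprotein assembly and nuclear receptors, of which 32 were tested, held genes called in both directions in every tissue. In kidney 4 were called higher and 11 lower (8.65% and 16.1% of all genes tested), with a median log2 difference of -0.43 beside -0.34 over all genes. In liver it was 13 and 10 (6.56% and 32.7%) with a median of 0.01 beside -0.72. In lung 10 and 13 were called (40.7% and 8.26%), with a median of 0.14 beside 0.82, and in small intestine 10 and 12 (13.7% and 11.3%), with -0.38 beside -0.01. These splits moved with the scaling of the libraries. After median-of-ratios scaling they were 7 and 9 in kidney (12.3% and 12.7% of all genes tested), 16 and 9 in liver (13.3% and 14.6%), 4 and 15 in lung (15.1% and 16.9%) and 10 and 12 in small intestine (13.7% and 12.2%). Without mitochondrial genes and their pseudogenes they were 9 and 9 in kidney (15.8% and 11.3%).

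The genes of this list with the largest log2 difference toward higher expression showed which steps stood beside the binding proteins of a tissue. In small intestine they were the monoacylglycerol acyltransferase Mogat2, at 226 and 249 (log2 difference 6.38), the lipoprotein assembly protein Mttp, at 259 and 291 (5.69), the diacylglycerol acyltransferase Dgat1, at 318 and 320 (4.97), and the fatty acid transport protein Slc27a4, at 145 and 164 (4.45). In liver they were Slc27a5, which activates bile acids and fatty acids, at 366 and 319 (7.98), hepatic lipase, Lipc, at 73.0 and 89.6 (5.91), the droplet protein Plin5, at 20.3 and 18.2 (3.20), and the acyl-CoA synthetase Acsl1, at 45.1 and 46.7 (2.75). A call by limma was a condition of being listed, and the adjusted p of these 8 ranged from 6.91e-08 to 7.68e-06.

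In lung the 4 genes were Gpihbp1, the capillary anchor of lipoprotein lipase, at 68.6 and 68.3 (log2 difference 4.42), the uptake receptor Cd36, at 347 and 359 (3.58), the acyl-CoA synthetase Acsl4, at 13.8 and 13.5 (2.15), and Slc27a3, at 4.50 and 6.58 (1.95). In kidney they were the acyltransferase Mogat1, at 49.7 and 55.1 (5.51), Slc27a2, an uptake and activation protein, at 602 and 516 (4.47), lipoprotein lipase, Lpl, at 45.5 and 39.1 (3.32), and the nuclear receptor Hnf4a, at 93.8 and 62.2 (2.04). Adjusted p by limma ranged from 5.60e-07 to 0.000184 over these 8, which again had to be called to be listed. Hnf4a was at 58.7 to 93.8 in all 6 libraries of kidney, liver and small intestine and at 0.764 and 0.350 in lung. Its part in the level of any member was not tested.

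The genes whose pattern was most like that of each member were found by Pearson's r of log2(FPKM + 1) over the 8 libraries, among about 7090 genes that reached a mean FPKM of 10 in a tissue. The 8 points are 4 tissues with 2 libraries each, so r describes how alike the tissue levels are and is given with no test. For Fabp1 they were Apol9a (r = 0.995), Apoa1 (0.994), the main protein of high-density lipoprotein, and Agpat2 (0.994), an acyltransferase of lipid synthesis. For Fabp2 they were Tm6sf2 (0.991), a protein of lipoprotein secretion, Gata4 (0.990), a transcription factor, and Apoa4 (0.989), an apolipoprotein of the intestine. Fabp3 was closest to Igfbp7 (0.998), Tmem176b (0.997) and Vegfb (0.994), and Fabp5 to Ear2 (0.997) and Pltp (0.994), the phospholipid transfer protein. Fabp7 was closest to Acy3 (0.989), the transporter Slc17a1 (0.987) and Tmem70 (0.985), and Fabp4, with the weakest likeness of the 6 genes, to Psmc5 (0.981), Vti1b (0.966) and Cotl1 (0.963).

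The values behind these correlations differed in level. Apoa1 was at 3172 and 2572 in liver and at 5166 and 5185 in small intestine, above Fabp1 in each of these libraries, while Apol9a reached 38.9 and 34.6. Igfbp7 was at 659 and 757 in kidney and 459 and 463 in lung, and at 53.9 or less elsewhere. As for Fabp3, kidney was above lung and both were above the rest, at a higher level. Ear2, listed as an alveolar macrophage marker, was at 127 and 112 in lung and at 2.56 or less elsewhere. Slc17a1 was at 217 and 197 in kidney and at 5.64 or less elsewhere, and Psmc5, a proteasome subunit, was between 34.2 and 58.8 in all 8 libraries. Among the members themselves r ranged from -0.98 between Fabp1 and Fabp3 to 0.84 between Fabp1 and Fabp2.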

How the data were processed

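Polyadenylated RNA of 4 tissues was sequenced in 8 libraries, and groups and replicate numbers follow the labels. By the study's methods each mouse gave all 4 tissues and the 2 libraries of a tissue came from separate mice, so p-values measure the spread between 2 animals. No source ties a replicate number to a mouse across tissues. The authors selected reads by sample index, mapped them with STAR 2.5.3a and default parameters to the Ensembl mouse genome (GRCm38) and deposited FPKM values from DESeq2 (fpkm function). The counting program, and how it used strand and multiply mapped reads, are not given in the sources used here. A few very abundant transcripts lower the FPKM of all other genes in a library. All columns matched a sample (0 did not).

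Of the symbols, 51847 (99.3%) matched 1 gene of GENCODE M21, the source of coordinates and exon lengths. Reads were recovered by multiplying FPKM by exon length: 94.5% to 96.1% of values up to 50 reads per library were whole within 0.02 reads. Values were transformed to log2(FPKM + 1) and fitted with limma 3.58.1 (eBayes with a trend, R 4.3.3) over genes that reached an FPKM of 1 in 2 or more libraries, tissue as the only term. Calls needed an adjusted p under 0.05 and a log2 difference over 1. The step was tested on simulated data. Python 3.11.15, numpy 2.4.6, pandas 2.3.3, scipy 1.17.1 and matplotlib 3.10.9 were used for the rest. Upstream windows were from RefSeq, matched by symbol for 4 of the 6 genes, Fabp1, Fabp2, Fabp3 and Fabp7.

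The members and lists were chosen with earlier results of these data known. Named genes were the 6 members, 9 relatives, per tissue the 4 called fatty acid handling genes with the largest log2 difference, per member the 3 genes with the highest r, and markers beside a member. The results of 2 genes that this rule names are not reported here. Alternatives changed the pseudocount, filter, scaling, trend, block, count model and libraries.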

Additional observations from a re-analysis of the deposited data

How the results depend on the processing

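No called difference of a member changed sign under any alternative. The counts of called members and of called handling genes per tissue and pair, both directions added, stayed within 1.5 times their value in 126 of 126 cases with all libraries and in 112 of 112 with 1 library left out. Counted per tissue and direction, 2 of 72 member counts and 7 of 72 handling counts moved further with all libraries (handling genes higher in lung from 10 to 4, higher in kidney from 4 to 7 or 9 and lower in liver from 10 to 6), and 1 of 64 and 0 of 64 with 1 left out. Of the log2 differences of members from the other tissues, 4 of Fabp3 with its pseudogene included, 213 of 216 kept their side of the threshold with all libraries and 189 of 192 with 1 left out. The exceptions were Fabp4 in liver (-0.95 after quantile normalization), Fabp4 in lung, which passed with a pseudocount of 0.1 (1.11), with voom on recovered reads (1.13) and without lung replicate 2 (1.24) or small intestine replicate 1 (1.004), and Fabp5 in small intestine (-0.98 without its replicate 2); the cause was not tested. Fabp7 did not pass the filter of an FPKM of 5, so its calls in kidney and lung could not be made there, and the members called fell from 2 to 1 higher in kidney and from 3 to 2 lower in lung. Equal counts did not mean equal genes between pairs of tissues: 295 of 318 member differences kept their call with all 8 libraries (8 lost, 15 gained) and 283 of 288 with 1 left out (2 lost, 3 gained). Besides those given with the members, Fabp7 in liver minus lung (0.76) was called after median-of-ratios scaling (1.30), quantile normalization (1.49), with a pseudocount of 0.1 (2.06) and with voom (2.51), and in lung minus small intestine with a pseudocount of 0.1 (-1.65) and with voom (-2.04). Differences that were not called changed sign for Fabp4 in lung (-0.06 to 1.24) and, in liver, for Fabp2 (-0.36 to 0.90), Fabp5 (-0.60 to 0.40) and Fabp7 (-0.41 to 0.33). Shares in the summed level moved with the length and the genes in the sum. Without division by length they were 34.7% for Fabp3 in kidney, where Fabp4 led with 39.5%, 94.4% for Fabp1 in liver and 65.8% for Fabp5 in lung. With the shortest coding transcript, chosen after seeing the data, they were 35.7%, 96.7% and 61.4%, and over the members and 9 relatives 97.01% for Fabp1 in liver, 31.4% for Fabp5 in lung and 40.8% for Fabp2 in small intestine. With a pseudocount of 0.1, Igfbp7 and Tmem176b were still among the closest to Fabp3 (r = 0.981 and 0.982), behind Ndufaf7 (0.988), which took the place of Vegfb. Apol7a and Leap2 replaced Apoa1 and Agpat2 for Fabp1, Gimd1 replaced Gata4 for Fabp2, and Mrpl50 and Coq9 replaced Acy3 and Tmem70 for Fabp7. Over all genes tested and with all 8 libraries, the number called higher ranged from 1103 to 2552 in kidney (1413 as reported), from 870 to 2073 in liver (1071) and from 2345 to 9028 in lung (6652), and the number called lower from 1828 to 4361 in kidney (2625), from 2147 to 8560 in liver (5334), from 1289 to 2618 in lung (1349) and from 1669 to 2991 in small intestine (1843).

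The replicate numbers were not taken to pair the tissues, since deviations of same-numbered libraries correlated between -0.217 and 0.053 over genes. With the replicate block, 5 members were called in kidney, 3 in liver, 5 in lung and 4 in small intestine, as without the block, and no member changed its call. Depth limited Fabp3 in liver and small intestine and Fabp7 in lung, which had 5 reads or fewer per library.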

Other observations

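Fabp4 and Fabp5 share a cluster on chromosome 3 with Fabp9, Fabp12 and Pmp2, 5 genes within 289 kb (chr3:10012548-10301183). Pmp2, a myelin protein, and Fabp9, known from the testis, were listed at 0 in all 8 libraries. Fabp12 was detected in lung at an FPKM of 0.625 and 0.837, from 17 and 29 reads, with at most 2 reads in any other library. It had its higher values in the tissue where Fabp5 was called higher, while Fabp4 was not called there.

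Fabp6, the bile acid carrier of the ileum, separated the libraries of small intestine. It was at 0.223 in replicate 1, from 1 read, and at 25.4 in replicate 2, from 138 reads, and no read was counted in the other 6 libraries, which allows an FPKM of up to 0.683 in the shallowest. The ratio was 114, with a 95% counting interval from 20.1 to 4538. Genes known for the position along the intestine, listed after the values of Fabp6 were seen, differed too. Slc10a2, the ileal bile acid transporter, was at 0.309 and 1.62 in replicates 1 and 2, Slc51b, which exports bile acids, at 26.2 and 41.0, and Fgf15, a hormone of the ileum, at 0 and 0.549. Pdx1, a transcription factor of the duodenum, was at 4.85 and 1.76. Fabp1 was at 4629 and 2643 and Fabp2 at 4472 and 6134 in the same libraries. With 1 library of each kind this has no replicate check, and its part in the spread of Fabp1 and Fabp2 was not tested.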
